A study of Homo sapiens with 6 samples.

Results

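Mitochondrial biogenesis and the expression of mitochondrial DNA (mtDNA) were followed through 10 nuclear genes, PPARGC1A, PPARGC1B, NRF1, TFAM, ESRRA, GABPA, TFB2M, POLRMT, POLG and TWNK. The genes were chosen by name for their function, and each of the 10 was found among the 58174 genes of the deposited expression table. TWNK, known earlier as C10orf2, was matched through its identifier. All 10 had a mean level above 0.5 TPM (transcript abundance scaled to a fixed total) in both groups, so none was lost to the minimum used for comparing genes.

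AGS, a human line grown from a gastric adenocarcinoma, was sequenced with and without depletion of the m6A demethylase FTO. The control group, si-NC, held 3 libraries whose labels give the genotype wild type, and the depleted group, si-FTO, held 3 libraries whose labels give the genotype FTO-/-, whereas the group names and the study's methods describe siRNA. Values were available as 1 mean TPM per group, so no error between libraries could be computed, no test was run, and the words higher and lower describe means only. Read numbers cannot be recovered from TPM, and the depth is therefore unknown.

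The coactivators PGC-1α and PGC-1β, encoded by PPARGC1A and PPARGC1B, bind transcription factors such as NRF1, the GABP complex and the estrogen-related receptors, and raise the transcription of nuclear genes for mitochondrial proteins. Among the products are the proteins that read and copy mtDNA: TFAM packages mtDNA and bends its promoters, TFB2M opens the promoter for the RNA polymerase POLRMT, and the helicase TWNK unwinds DNA for the polymerase POLG. Transcripts of mtDNA are long and are cut into rRNAs, tRNAs and mRNAs, so the level of each mature RNA also depends on its processing and decay.

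The label of the cells was compared with marker genes before the results. Of 30 gastric and intestinal epithelial markers, 16 were under 1 TPM in both groups, and TFF1, TFF3, CEACAM6 and CDX1 were listed at 0 in both. EPCAM had 1.22 TPM in si-NC against 0.113 TPM in si-FTO, and CDH1, the gene of E-cadherin, had 3.67 and 0.685 TPM. The list summed to 147 TPM in si-NC, led by KRT18 with 52.1 TPM, and to 5393 TPM in si-FTO, led by KRT8 with 3139 TPM. KRT8 had 10.8 TPM in si-NC, ELF3 had 0.115 TPM there and 93.3 TPM in si-FTO, and KRT7 was listed at 0 in si-NC and had 253 TPM in si-FTO. In the other direction, the transcription factors GATA4 and CDX2 had 37 and 18.1 TPM in si-NC and were listed at 0 in si-FTO, and GATA6 had 20.3 TPM in si-NC against 2.54 TPM in si-FTO. Several defining epithelial markers were thus near 0 in each group, and the groups differed in which of them were present.

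Markers of other cell types also differed. The 14 neuronal markers summed to 454 TPM in si-NC, of which UCHL1 gave 303 TPM, and to 30.2 TPM in si-FTO, led by NEFH with 13 TPM. UCHL1 had 0.0204 TPM in si-FTO. NEFL, NEFM and GAP43 had 62.7, 49.9 and 5.01 TPM in si-NC and were listed at 0 in si-FTO, and SNAP25 had 0.316 TPM in si-NC against 9.72 TPM in si-FTO. The 14 mesenchymal markers summed to 681 and 853 TPM and were led by VIM in both groups, with 440 and 752 TPM. CDH2 had 53.7 and 1.25 TPM, SPARC 114 and 20.7 TPM, FN1 27.7 and 8.74 TPM, COL1A1 10.3 and 36.4 TPM, and PDGFRB 0.37 and 5.34 TPM. The 10 immune markers summed to 5.23 TPM in si-NC and to 8.22 TPM in si-FTO, led by CD68 with 6.42 TPM, with PTPRC listed at 0 in both. Of 7 endothelial markers 6 were found, and they summed to 0.685 TPM in si-NC, led by KDR with 0.401 TPM, and to 41.3 TPM in si-FTO, led by CDH5 with 40.9 TPM. The part of these marker differences in the values below was not tested. In bulk samples, fewer cells of a type and less RNA per cell cannot be told apart. Whether both groups hold the same cells was not tested.

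FTO itself had 33.1 TPM in si-NC against 7.27 TPM in si-FTO, for a log2 ratio of -2.05. Here and below, the log2 ratio is that of mean TPM in si-FTO over si-NC after adding a pseudocount of 1 TPM, which understates the difference of low genes. A gene is called past the fold when its log2 ratio is at least 1 in size. Of the 20493 genes with at least 0.5 TPM in a group, 2340 (11.4%) were higher in si-FTO past the fold and 3492 (17%) were lower. With a minimum of 5 TPM, which left 12967 genes, the shares were 13.3% and 17.4%. Under median-ratio scaling, described below, 13.2% were higher and 14.8% lower, and under quantile normalization 13.6% and 14.1%, so the excess of lower genes depends on the scaling. A log2 ratio below 0 was found for 59.7% of the genes, and for 52.8% under median-ratio scaling. Under rescaling over nuclear genes, 11.4% were higher past the fold and 17.9% lower. The counts given for lists below are to be set against the shares of all genes under the same scaling. None of them is read as a result about its list. Over all genes compared, the ratios had a median of -0.20. Scaling the groups by the median of their gene ratios removed a shift of -0.17, and for the 10 genes and the counts given for lists, values after this scaling are given where it changes a direction or a call.

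Of the 10 genes of biogenesis, 2 were higher in si-FTO past the fold, PPARGC1A and ESRRA, 1 was lower past it, PPARGC1B, and 7 were within it. These shares of 20% and 10% are of the order of the 11.4% and 17% of all genes and are no result about the group. Their median log2 ratio was -0.10, and the ratios spread from -2.04 to 1.89, so the genes did not move as a block. After median-ratio scaling the median was 0.07 and TFB2M passed the fold as well.

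In si-NC the order of levels was POLRMT with 70.2 TPM, POLG with 63.4, TWNK with 60.7, ESRRA with 38.3, TFAM with 30.7, NRF1 with 23.3, PPARGC1B with 20.7, TFB2M with 19.5, GABPA with 16.5 and PPARGC1A with 3.02 TPM. In si-FTO it was ESRRA with 83.4 TPM, TWNK with 61.8, POLG with 59.3, POLRMT with 51.4, TFB2M with 37.8, NRF1 with 21.7, TFAM with 20.3, PPARGC1A with 13.9, GABPA with 9.97 and PPARGC1B with 4.28 TPM. The enzymes of mtDNA stood near the top and the coactivators and GABPA near the bottom in both orders, and PPARGC1B stood above PPARGC1A in si-NC and below it in si-FTO. Without values per library it cannot be said which neighbours in either order differ.

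**Figure D1:**
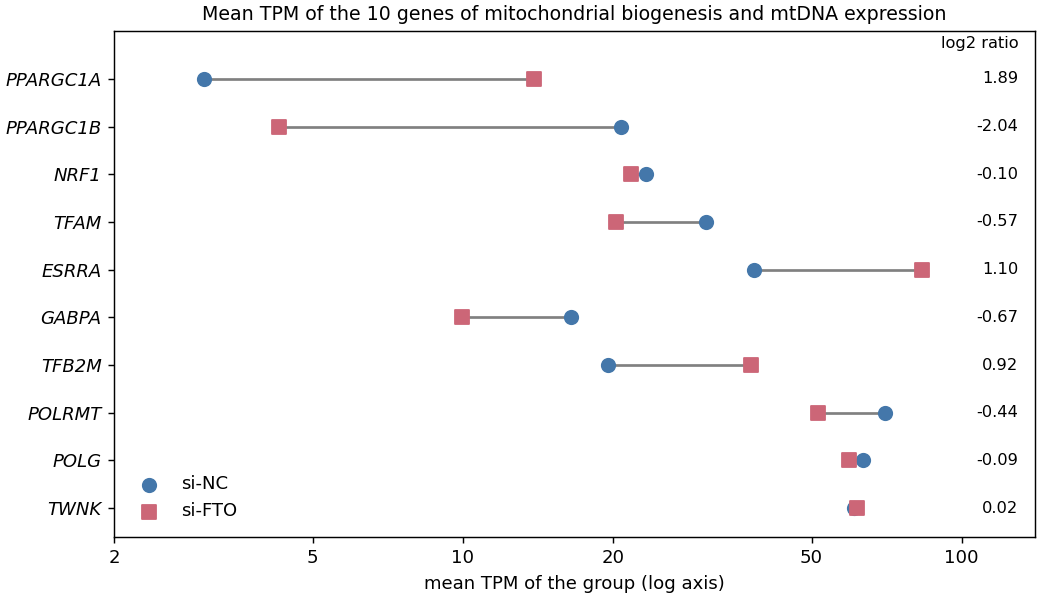
Mean TPM of the 10 genes in si-NC (circles) and si-FTO (squares) on a log axis, 1 mean per group without error, with the log2 ratio at the right. PPARGC1A (1.89) and PPARGC1B (-2.04) lie at the extremes in opposite directions, and NRF1, POLG and TWNK are within 0.25 of 0, with NRF1 and POLG changing sign under median-ratio scaling.

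The 2 coactivators showed opposite patterns. PPARGC1A, on chromosome 4 (build GRCh37, as for all genes below) from 23756664 to 23905712 on the minus strand (ENSG00000109819), had 3.02 TPM in si-NC against 13.9 TPM in si-FTO, a mean 4.62 times as high and a log2 ratio of 1.89. Of all genes compared, 5.21% had a ratio at least as high. PPARGC1B, on chromosome 5 from 149109861 to 149234585 on the plus strand (ENSG00000155846), had 20.7 TPM in si-NC against 4.28 TPM in si-FTO, 4.83 times as high in the control and a log2 ratio of -2.04. A ratio at least as low was found for 5.85% of the genes. Both stayed past the fold under each of 4 other scalings, with log2 ratios from 1.91 to 2.11 for PPARGC1A and from -2.11 to -1.84 for PPARGC1B.

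Within a group, a ratio between genes does not depend on a common scale factor. There were 6.84 PPARGC1B transcripts for each PPARGC1A transcript in si-NC and 0.307 in si-FTO. PPRC1, the related coactivator PRC that is known from proliferating cells, was the most abundant of the family in both groups, with 70.2 and 61.6 TPM and a log2 ratio of -0.19. It made up 74.8% of the summed TPM of the 3 coactivators in si-NC and 77.2% in si-FTO, while the sum was 93.9 and 79.9 TPM. The share of PPARGC1A was 3.22% in si-NC against 17.5% in si-FTO, and that of PPARGC1B was 22% and 5.36%. PPRC1 thus made up most of the family total in each group, and the shares of the other members differed more than its own.

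PPARGC1B hosts the microRNA gene MIR378A, which lies inside it on the same strand. The gene entry of MIR378A had 0.309 TPM in si-NC against 0.786 TPM in si-FTO, both under 1 TPM, and reads from the host transcript could be assigned to it. The mature microRNAs were not measured by these libraries. They are shown because they are made from within the gene with the lowest ratio of the 10, with the seed, bases 2 to 8, in capitals (RefSeq, GRCh38.p14, hairpin at chr5:149732825-149732890, plus strand).
hsa-miR-378a-5p: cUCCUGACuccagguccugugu
hsa-miR-378a-3p: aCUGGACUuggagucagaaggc

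Promoter sequences were compared because NRF1 and GABP are textbook regulators of several of the other genes. The RefSeq promoter table (GRCh38.p14) holds 9 entries for 8 of the 10 genes, with 2 entries for PPARGC1A and none for NRF1 and TWNK. The entry of PPARGC1B and 1 of the entries of PPARGC1A belong to starts inside the gene as RefSeq places it, so they may not describe the main promoter. In the 250 bases before each start, both strands were searched for 2 forms of the NRF1 motif, GCGCA and GCGC separated by any 1 base and the core GCATGCGC, which can overlap each other, for the ETS core CGGAAG that GABPA binds, and for the extended estrogen-related receptor half-site TCAAGGTCA. The motifs were chosen with the sequences known. The separated form was present for TFAM, POLRMT and ESRRA, compared with 5.07% of all 35116 promoters, and GCATGCGC for TFB2M, POLRMT and ESRRA, compared with 2.63%. CGGAAG was present for TFB2M, POLRMT and GABPA, compared with 16.5%, and TCAAGGTCA for none of them, compared with 0.319%. A match describes letters and shows neither binding nor a cause.

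The last 100 bases before the start are printed 5′ to 3′ on the strand of the gene, with NRF1 and ETS matches in capitals, for the genes that held a match. They lie at chr10:58385310-58385409 (plus strand) for TFAM, chr1:246566262-246566361 (minus) for TFB2M, chr19:633538-633637 (minus) for POLRMT, chr11:64305424-64305523 (plus) for ESRRA and chr21:25734872-25734971 (plus) for GABPA. The entry of PPARGC1A that starts inside the gene is printed as well, because that gene had the highest ratio of the 10. It lies at chr4:23881102-23881201 (minus), and these letters were not found in it.
TFAM: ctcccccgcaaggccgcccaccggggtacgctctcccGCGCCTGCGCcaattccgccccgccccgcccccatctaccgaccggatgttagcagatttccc
TFB2M: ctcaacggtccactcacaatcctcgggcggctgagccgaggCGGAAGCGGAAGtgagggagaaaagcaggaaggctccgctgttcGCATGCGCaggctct
POLRMT: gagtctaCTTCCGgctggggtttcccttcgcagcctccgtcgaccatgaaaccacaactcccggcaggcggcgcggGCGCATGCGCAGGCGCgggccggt
ESRRA: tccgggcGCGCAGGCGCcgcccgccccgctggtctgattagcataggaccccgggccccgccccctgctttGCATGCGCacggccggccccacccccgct
GABPA: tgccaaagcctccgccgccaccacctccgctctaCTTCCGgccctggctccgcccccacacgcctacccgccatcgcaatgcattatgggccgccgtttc
PPARGC1A: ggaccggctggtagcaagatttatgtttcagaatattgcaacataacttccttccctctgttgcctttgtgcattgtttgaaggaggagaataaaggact

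Of the 4 genes with an NRF1 match, TFAM and POLRMT had lower means in si-FTO and TFB2M and ESRRA higher ones, and of the 3 genes with an ETS match TFB2M had a higher mean and POLRMT and GABPA lower ones. Of these 5 genes ESRRA alone was past the fold on the deposited scale, and a link between the letters and the levels was not tested. These directions held under each of the 4 other scalings.

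Among the transcription factors, NRF1 and GABPA had the levels of moderately expressed genes. NRF1, on chromosome 7 from 129251561 to 129396922 on the plus strand, had 23.3 TPM in si-NC against 21.7 TPM in si-FTO, for a log2 ratio of -0.10 that became 0.07 under median-ratio scaling. GABPA, the DNA-binding subunit of GABP on chromosome 21 from 27106881 to 27144771 on the plus strand, had 16.5 and 9.97 TPM, a log2 ratio of -0.67. Its partner subunit GABPB1, which carries the activation domain, had 20 and 26.1 TPM, a log2 ratio of 0.37. GABPA transcripts numbered 0.823 for each GABPB1 transcript in si-NC and 0.382 in si-FTO, so the ratio of the transcripts differed more than either level. GABPB2, an alternative partner, had 6.26 and 5.88 TPM, a log2 ratio of -0.08 that changed sign under 2 of the 4 scalings. GABPA overlaps the divergent gene ATP5PF (271 and 194 TPM) by 1104 bases on the opposite strand, and the pseudogene GABPAP had 1.39 and 0.652 TPM. The libraries came from a stranded kit, but whether the authors' quantification used strand is not given in the sources used here, so reads of overlapping genes are uncertain.

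ESRRA, the gene of the estrogen-related receptor ERRα through which PGC-1 proteins act on respiratory genes, lies on chromosome 11 from 64072969 to 64084215 on the plus strand. It had 38.3 TPM in si-NC against 83.4 TPM in si-FTO, 2.18 times as high, a log2 ratio of 1.10 that ranged from 1.08 to 1.27 under the other scalings. Of all genes compared, 10.3% had a ratio at least as high. The related receptors went the other way: ESRRB had 9.41 TPM in si-NC against 0.21 TPM in si-FTO, for a log2 ratio of -3.11, and ESRRG had 5.13 TPM in si-NC and was listed at 0 in si-FTO. ESRRA made up 72.5% of the summed TPM of the 3 receptors in si-NC and 99.7% in si-FTO, with sums of 52.8 and 83.6 TPM. The receptor family was thus mixed in si-NC and nearly all ESRRA in si-FTO. The neighbouring gene TRMT112, which overlaps ESRRA by 284 bases on the opposite strand, had 135 and 228 TPM, a log2 ratio of 0.75. The processed copies ESRRAP1 and ESRRAP2 stayed below 0.3 TPM in both groups.

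The wider list of coactivators and transcription factors of biogenesis held 22 genes, all compared, with 3 higher past the fold, 3 lower and a median log2 ratio of -0.14. Under median-ratio scaling 5 were higher and 3 lower past the fold, and the median was 0.02. The shares of all genes were 11.4% higher and 17% lower, or 13.2% and 14.8% under median-ratio scaling. Besides PPARGC1A and ESRRA, the higher one was MYC, the growth regulator, with 20.7 TPM in si-NC against 63.2 TPM in si-FTO and a log2 ratio of 1.57. The lower ones were ESRRB, ESRRG and PPARGC1B. TFDP1, the dimerization partner of E2F factors, was the most abundant of the list in both groups, with 98.1 and 196 TPM and a log2 ratio of 0.99, or 1.16 under median-ratio scaling. PPARGC1A and PPARGC1B held the highest and the third lowest ratio of the list.

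Regulators acting upstream of PGC-1 were compared as a list of 23 genes, of which 2 were higher past the fold, 4 were lower and the median log2 ratio was -0.34, where 11.4% of all genes were higher past it and 17% lower. STK11, the kinase LKB1 that activates AMPK, had 53.7 TPM in si-NC against 3.85 TPM in si-FTO, for a log2 ratio of -3.50. Of the AMPK subunits, the catalytic PRKAA1 had 27.8 and 86.9 TPM (1.61) and the regulatory PRKAG1 had 84.5 and 196 TPM (1.20), whereas PRKAB2 had 31 and 11.5 TPM (-1.35). The AMPK subunits therefore differed in both directions, with their upstream kinase among the lowest ratios. MEF2C, a transcription factor of muscle and neurons, had 10.4 TPM in si-NC against 0.0198 TPM in si-FTO, for a log2 ratio of -3.49. CAMK4, a calcium-dependent kinase, had 4.54 and 0.00982 TPM, a log2 ratio of -2.46. MEF2D had 20.9 and 32.7 TPM, a log2 ratio of 0.62, and the arginine methyltransferase PRMT1, most abundant of the list, had 456 and 257 TPM. MEF2C and CAMK4 were thus present in si-NC and close to 0 in si-FTO.

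The 3 core factors of mtDNA transcription diverged. TFAM, on chromosome 10 from 60145105 to 60158980 on the plus strand, had 30.7 TPM in si-NC against 20.3 TPM in si-FTO, for a log2 ratio of -0.57. POLRMT, on chromosome 19 from 617221 to 633537 on the minus strand, had 70.2 and 51.4 TPM, a log2 ratio of -0.44. TFB2M, on chromosome 1 from 246703863 to 246729563 on the minus strand, had 19.5 and 37.8 TPM, 1.94 times as high in si-FTO and a log2 ratio of 0.92, just under the fold, with 12.4% of genes at least as high. Under median-ratio scaling it was 1.08. The polymerase and the packaging factor were thus lower and the promoter-opening factor higher, and the number of POLRMT transcripts for each TFB2M transcript was 3.6 in si-NC against 1.36 in si-FTO. The ratio of POLRMT to TFAM was similar in the groups, 2.29 and 2.54. Copies of these genes were low, with TFAMP1 at 0.0788 TPM in si-NC but listed at 0 in si-FTO, TFAMP2 listed at 0 in both, and POLRMTP1 at 0.0668 and 1.42 TPM.

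TFB1M, the paralog of TFB2M that methylates mitochondrial rRNA, had 40.6 and 26.1 TPM, a log2 ratio of -0.62. The ratio of TFB2M to TFB1M was 0.481 in si-NC against 1.45 in si-FTO, so the more abundant of the paralogs changed. TEFM, the elongation factor that works with POLRMT, had 19 and 12.1 TPM, a log2 ratio of -0.61. The full list of mtDNA transcription held 11 genes, of which 10 had a log2 ratio below 0 and TFB2M alone one above it, a split that was the same under each of the 4 other scalings. Of all genes, 59.7% lay below 0, and 52.8% under median-ratio scaling. Its median was -0.61, compared with -0.20 for all genes, and -0.45 under median-ratio scaling. MTERF4, a ribosome assembly factor of the MTERF family, was past the fold, with 30.7 and 12.9 TPM (-1.19), and under median-ratio scaling TFB2M was as well. MTERF1, which binds the end of the rRNA genes, had 5.08 and 2.74 TPM (-0.70), MTERF2 had 12.9 and 7.82 TPM (-0.65), and MRPL12, a ribosomal protein that binds POLRMT, was most abundant with 355 and 244 TPM (-0.54).

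**Figure D2:**
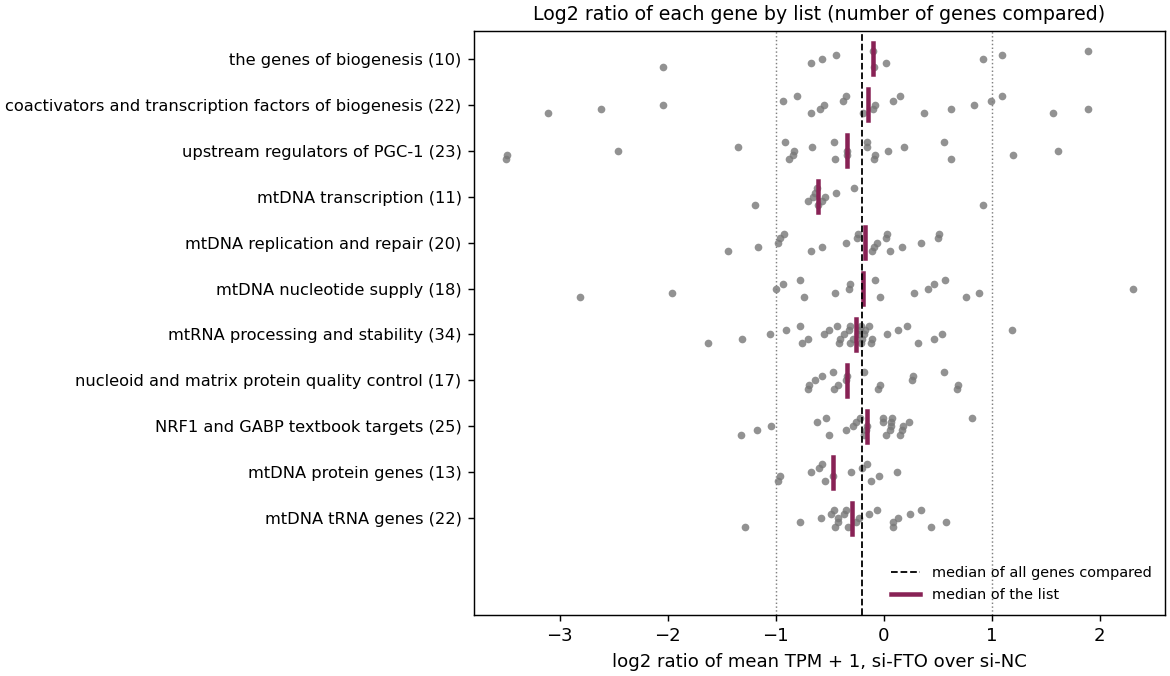
Log2 ratio of mean TPM, si-FTO over si-NC, for each gene compared (points) in 11 lists, with the list's median (thick bar), the median of all genes at -0.20 (dashed line) and the fold of 1 in size (dotted lines). The 10 genes of biogenesis spread to both sides with a median of -0.10, and mtDNA transcription has the lowest median, -0.61; under median-ratio scaling these become 0.07 and -0.45, and the medians of the coactivators (-0.14) and of the NRF1 and GABP targets (-0.15) also change sign.

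The replication genes POLG and TWNK were close to equal in the groups. POLG, the catalytic subunit of the mtDNA polymerase on chromosome 15 from 89848429 to 89878092 on the minus strand, had 63.4 TPM in si-NC against 59.3 TPM in si-FTO, for a log2 ratio of -0.09 that became 0.07 under median-ratio scaling. TWNK, the helicase on chromosome 10 from 102747124 to 102754160 on the plus strand, had 60.7 and 61.8 TPM, a log2 ratio of 0.02. Their ratio, TWNK over POLG, was 0.958 in si-NC against 1.04 in si-FTO. POLG2, the accessory subunit that makes the polymerase processive, had 33.9 and 17.4 TPM, a log2 ratio of -0.92. There were 1.87 POLG transcripts for each POLG2 transcript in si-NC against 3.41 in si-FTO, and the proteins were not measured. POLG shares 12064 bases with FANCI on the opposite strand, a DNA repair gene with 137 and 126 TPM, and TWNK shares 149 bases with MRPL43 on the opposite strand, with 65.9 and 93.6 TPM, so the values of both genes are uncertain to that extent.

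Other genes of mtDNA replication and repair included SSBP1, the single-strand binding protein of the replication fork, which had 591 TPM in si-NC against 217 TPM in si-FTO, for a log2 ratio of -1.44. SSBP1 transcripts numbered 19.3 for each TFAM transcript in si-NC and 10.7 in si-FTO. The nuclease and helicase DNA2 had 22.9 and 9.67 TPM (-1.16), and the topoisomerase TOP1MT had 63.1 and 31.4 TPM (-0.98). On the other side, the flap endonuclease FEN1 had 180 and 257 TPM (0.51), and ranked first by level in si-FTO. The base excision genes UNG and APEX1 had 59.6 and 84.9 TPM (0.50) and 85.9 and 110 TPM (0.35). Of the 20 genes, 2 were lower past the fold, 0 were higher, and the median was -0.17, near that of all genes. Past the fold, 17% of all genes were lower and 11.4% higher.

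**Figure D3:**
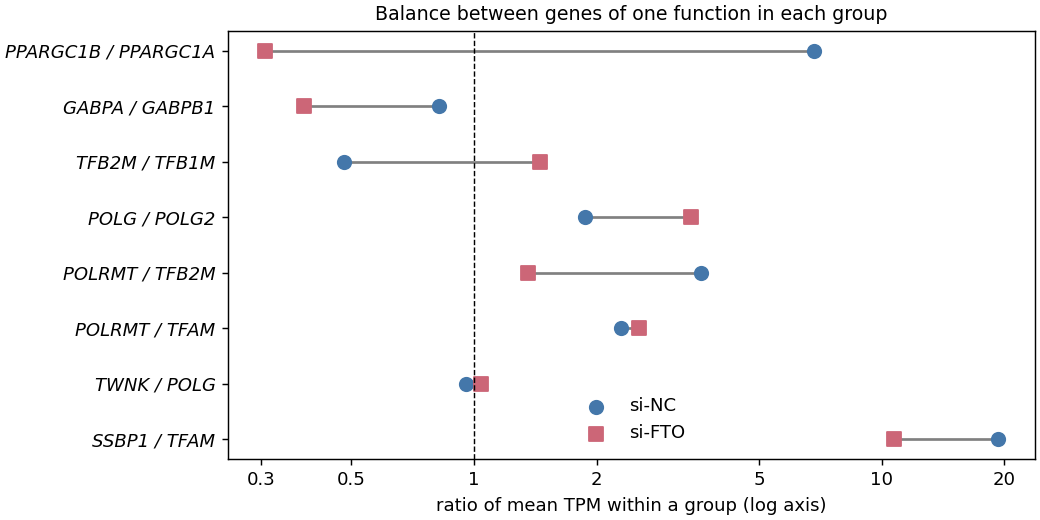
Ratio of mean TPM between genes that work together, within si-NC (circles) and within si-FTO (squares), on a log axis with 1 dashed. PPARGC1B over PPARGC1A was 6.84 and 0.307 and TFB2M over TFB1M was 0.481 and 1.45, whereas POLRMT over TFAM (2.29 and 2.54) and TWNK over POLG (0.958 and 1.04) differed less between the groups.

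Genes for mtDNA nucleotide supply, including TYMP, which breaks down thymidine, held the highest single ratio of the lists of nuclear genes of the pathway. TK2, the mitochondrial thymidine kinase, had 4.19 TPM in si-NC against 24.7 TPM in si-FTO, for a log2 ratio of 2.31. The phosphorylase TYMP had 4.09 and 8.36 TPM (0.88, and 1.03 under median-ratio scaling), and the thymidylate synthase TYMS had 134 and 226 TPM (0.76). ABAT, the GABA transaminase that also acts in mitochondrial nucleotide salvage, had 6.59 and 0.0832 TPM (-2.81), the nucleoside diphosphate kinase NME4 had 352 and 89.9 TPM (-1.96), and the pyrimidine nucleotide carrier SLC25A33 had 19.4 and 9.18 TPM (-1.0, and -0.85 under median-ratio scaling). Of 19 genes found, 18 were compared, 1 was higher past the fold, 3 were lower and the median was -0.20. Under median-ratio scaling and under quantile normalization, 2 were higher and 2 lower. The shares of all genes were 11.4% higher and 17% lower on the deposited scale. They were 13.2% and 14.8% under median-ratio scaling and 13.6% and 14.1% under quantile normalization.

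The products of mtDNA were read directly from the same table. The 13 protein genes summed to 122676 TPM in si-NC against 103758 TPM in si-FTO, 12.3% and 10.4% of all TPM, and the sums had a log2 ratio of -0.24. Of the 13 genes, 12 had a log2 ratio below 0 and MT-ND4L one above it, none was past the fold, and the median was -0.47. Under median-ratio scaling 9 were below 0 and 4 above, the median was -0.30, and the log2 ratio of the sums was -0.07. Of all genes, 59.7% lay below 0 with a median of -0.20, and 52.8% under median-ratio scaling with a median of -0.06. Lower past the fold were 2 genes under quantile normalization, MT-ND3 and MT-ND6, and 1 under rescaling over nuclear genes. Of all genes, 14.1% and 17.9% were lower past the fold under these scalings, and 17% on the deposited scale. The share of all TPM taken by mtDNA protein genes was thus somewhat lower in si-FTO on the deposited scale, by less than the fold and with an unknown error.

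The cytochrome oxidase genes dominated in both groups. MT-CO2 had 24653 TPM in si-NC against 20077 TPM in si-FTO (-0.30), MT-CO3 had 22416 and 21818 TPM (-0.04), and MT-CO1 had 21510 and 19429 TPM (-0.15), the last pair changing sign under median-ratio scaling and MT-CO3 also under quantile normalization. Together these 3 genes of complex IV made up 55.9% of the summed TPM of the protein genes in si-NC and 59.1% in si-FTO. The 7 genes of complex I gave 29.9% and 29.4%, MT-CYB of complex III gave 4.31% and 3.38%, and the 2 genes of complex V gave 9.88% and 8.09%. The composition of the mtDNA mRNA pool by complex was therefore similar in the groups.

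The lowest ratios were those of MT-ND3, with 3540 TPM in si-NC against 1793 TPM in si-FTO (-0.98), and MT-ND6, with 1557 and 799 TPM (-0.96). MT-ND6 is the only protein gene annotated on the minus strand, and its share of the protein gene sum was 1.27% in si-NC against 0.77% in si-FTO. Its neighbour on the other strand, MT-ND5, had 3497 and 2193 TPM (-0.67), so that the ratio of MT-ND6 to MT-ND5 was 0.445 and 0.364. Reads of the RNA running opposite to MT-ND6 are counted for it if strand is ignored, so its level and this ratio are uncertain. MT-CYB had 5293 and 3502 TPM (-0.60), MT-ND2 had 6152 and 4236 TPM (-0.54), and MT-ND1 had 3557 and 3088 TPM (-0.20). MT-ND4 had 9474 and 8732 TPM (-0.12, above 0 under median-ratio scaling) and MT-ND4L had 8907 and 9698 TPM (0.12). The genes of complex I thus spanned the whole range of ratios, from MT-ND3 to MT-ND4L. MT-ATP6 had 4719 and 3395 TPM (-0.47) and MT-ATP8 had 7401 and 4998 TPM (-0.57). MT-ND4L and MT-ND4 share 7 bases and one transcript, and MT-ATP8 and MT-ATP6 share 46 bases and one transcript, so the split of reads within each pair is uncertain.

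**Figure D4:**
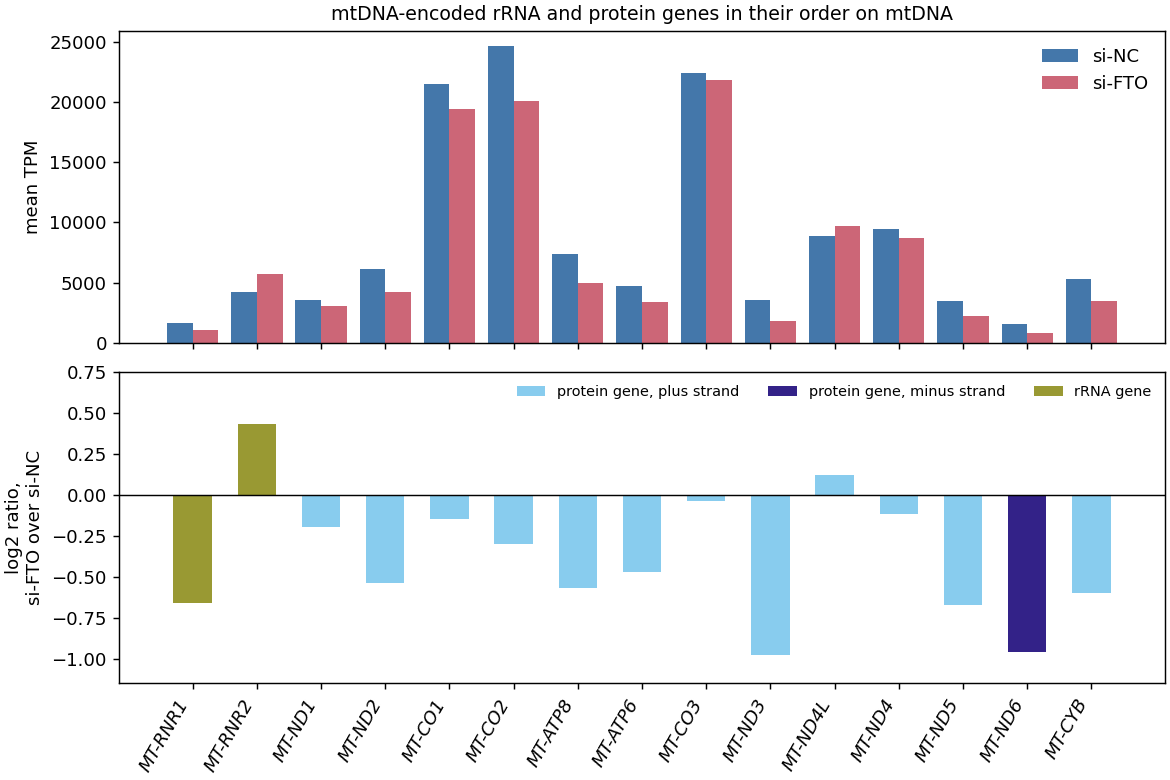
Top: mean TPM of the 2 rRNA and 13 protein genes of mtDNA in si-NC and si-FTO, in their order on mtDNA; bottom: their log2 ratio, coloured by kind and annotated strand, without error. Of the protein genes 12 lie below 0, from -0.98 for MT-ND3 to -0.04 for MT-CO3, and MT-ND4L lies above. Of all genes, 59.7% lie below 0. MT-CO1, MT-CO3 and MT-ND4 change sign under median-ratio scaling, and MT-CO3 also under quantile normalization.

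The rRNA genes differed from each other. MT-RNR1, the RNA of the small mitochondrial ribosomal subunit, had 1676 TPM in si-NC against 1060 TPM in si-FTO (-0.66), and MT-RNR2, that of the large subunit, had 4209 and 5678 TPM (0.43). MT-RNR2 exceeded MT-RNR1 by a ratio of 2.51 in si-NC against 5.35 in si-FTO, although both RNAs are cut from one transcript. Library selection sets the share of rRNA that is sequenced, and its part in this ratio was not tested.

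The 22 tRNA genes of mtDNA summed to 13937 TPM in si-NC against 14888 TPM in si-FTO, for a log2 ratio of 0.10. Of these genes, 7 had a log2 ratio above 0 and 15 below, with a median of -0.29. Of all genes, 39.8% lay above 0 and 59.7% below, or 46.8% and 52.8% under median-ratio scaling. Of the 8 tRNA genes annotated on the minus strand 5 were above 0, and of the 14 on the plus strand 2 were. Median-ratio scaling gave 4 of the 14 and left the 5 unchanged, and a difference between the strands was not tested. The most abundant was MT-TC with 3377 and 3994 TPM, and the highest ratios were those of MT-TA with 1004 and 1506 TPM (0.58), MT-TN with 1955 and 2656 TPM (0.44) and MT-TP with 203 and 259 TPM (0.35). MT-TA, MT-TN and MT-TC lie side by side on the minus strand, where reads of the RNA running opposite to them are counted if strand is ignored. The lowest ratios were those of MT-TF with 106 and 43.2 TPM (-1.28), MT-TE with 535 and 314 TPM (-0.77) and MT-TL1 with 1144 and 765 TPM (-0.58). Mature tRNAs are poorly captured by a standard library, and whether these values come from tRNAs or from longer RNAs that contain them was not tested.

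Nuclear copies of mtDNA genes add a further uncertainty. The table lists 404 such pseudogenes, which summed to 5387 TPM in si-NC against 4479 TPM in si-FTO. The most abundant were MTATP6P1 with 2823 and 1951 TPM, MTCO1P12 with 1212 and 1425 TPM and MTND2P28 with 1132 and 939 TPM, against 4719, 21510 and 6152 TPM in si-NC for the mtDNA genes they copy. Their sequences are close to those of mtDNA, so an unknown part of these reads may come from mtDNA itself, and the levels of MT-ATP6, MT-CO1 and MT-ND2 are uncertain to that extent.

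Proteins that process and stabilise mtDNA transcripts were compared as 34 genes, of which 1 was higher past the fold, 3 were lower and the median was -0.26. FASTKD3, a member of the FASTK family of mitochondrial RNA-binding proteins, had 14.1 TPM in si-NC against 33.4 TPM in si-FTO (1.19). The tRNA-modifying enzymes GTPBP3, with 116 and 36.9 TPM (-1.63), and MTO1, with 13.8 and 20.5 TPM (0.54), act as one complex and had opposite directions. The pseudouridine synthases RPUSD3, with 122 and 48.5 TPM (-1.31), and RPUSD4, with 43.5 and 20.5 TPM (-1.05, and -0.89 under median-ratio scaling), were both lower. HSD17B10, a subunit of the enzyme that cuts the ends of tRNAs, was the most abundant with 302 and 419 TPM (0.47). Of the list, 27 genes had a ratio below 0, where 59.7% of all genes did, and 24 under median-ratio scaling, where 52.8% did. That scaling, like quantile normalization, left 2 lower past the fold. On the deposited scale 11.4% of all genes were higher past the fold and 17% lower. The lower share was 14.8% under median-ratio scaling and 14.1% under quantile normalization.

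Textbook target genes of NRF1 and GABP had a median close to that of all genes. The list held 25 genes with 0 higher past the fold, 3 lower and a median of -0.15, compared with -0.20 for all genes. Under median-ratio scaling 1 was lower and the median was 0.02. Past the fold, 11.4% of all genes were higher and 17% lower, or 13.2% and 14.8% under median-ratio scaling. The most abundant were COX6A1 in si-NC, with 1086 and 933 TPM, and ATP5F1B in si-FTO, with 1067 and 1120 TPM, subunits of cytochrome oxidase and ATP synthase. SDHA, the flavoprotein of succinate dehydrogenase, had 165 and 293 TPM (0.82), UQCRQ had 274 and 322 TPM (0.23) and COX7C had 451 and 512 TPM (0.18). Among the lower ones was the import receptor TOMM20, with 385 and 171 TPM (-1.17).

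The position of the 10 genes in the genome was also described, from the 20 compared genes that lie nearest to each. Among all genes 11.4% were higher past the fold and 17% lower. Around the coactivators, the neighbours had a median log2 ratio of -0.46 for PPARGC1A, with 0 of 20 higher past the fold and 4 lower, and of -0.65 for PPARGC1B, with 2 higher and 7 lower. Around the transcription factors the medians were -0.34 for NRF1 (2 higher, 5 lower), 0.60 for ESRRA (5 higher, 0 lower) and -0.65 for GABPA (0 higher, 5 lower). Around the genes of mtDNA transcription they were -0.04 for TFAM (3 higher, 5 lower), 0.35 for TFB2M (5 higher, 3 lower) and -0.14 for POLRMT (8 higher, 2 lower), and around those of replication -0.38 for POLG (2 higher, 4 lower) and -0.48 for TWNK (2 higher, 8 lower). These values are on the deposited scale only, and an effect of position was not tested.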

How the data were processed

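RNA from AGS cells was sequenced on an Illumina HiSeq instrument with 3 libraries per group. The authors mapped reads to hg19 with Bowtie and quantified genes with RSEM according to the study's methods, whereas the submitters' processing notes name HISAT2, and the annotation is not given in the sources used here. The deposited unit is TPM, given by the authors as 1 mean per group. The deposited columns of the authors' own comparison give each gene a log2 fold change, p-value and q-value and were not used. A value of exactly 0.0001 TPM, found for 26830 genes in si-NC and 29534 in si-FTO, was read as 0. Symbols matched 55726 of the 58174 identifiers, and positions come from GENCODE lifted to GRCh37.

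A limma fit was planned for values per library, and group means allow none. Log2 ratios used a pseudocount of 1 TPM, genes with at least 0.5 TPM in a group were compared, and the fold was a log2 ratio of 1. The alternatives were a pseudocount of 0.1, median-ratio scaling over the 13781 genes with at least 1 TPM in both groups, quantile normalization, rescaling over nuclear genes or without the 100 most abundant genes, other minimums and a fold of 1.5. The genes named are FTO, the 10 genes of biogenesis and their partners in a complex, each mtDNA protein and rRNA gene and, of every other list, the most abundant gene, the 3 largest ratios in each direction and those listed at 0 in 1 group with at least 1 TPM in the other. Names outside this rule, the motifs and the neighbours were chosen after values were seen. These names include overlapping genes, pseudogenes, MIR378A, PPRC1, TFB1M, PRKAB2 and some markers. Some genes covered by the rule are not reported here. The genes of biogenesis and the lists were chosen with earlier results of these data known. Calculations used Python 3.11.15, numpy 2.4.6, pandas 2.3.3 and matplotlib 3.10.9 and were tested on simulated data.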

Additional observations from a re-analysis of the deposited data

How the results depend on the processing

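No paired analysis was possible because the table holds 1 mean per group, and for the same reason leaving out each library and a replicate block were not run. The missing error and the unknown depth limit every value. Of 179 comparisons with an alternative setting, 158 kept their direction and their side of the fold or stayed within the tolerance set (0.2 in log2 for medians, a factor of 1.5 for counts).

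Under median-ratio scaling, the log2 ratio became 0.07 for NRF1 and 0.07 for POLG, and TFB2M passed the fold at 1.08. The median also changed sign for the 10 genes (0.07), the coactivators and transcription factors (0.02), the NRF1 and GABP targets (0.02) and the mesenchymal markers (0.06). The shift of -0.17 that this scaling removes accounts for these signs. The mesenchymal median was 0.19 under quantile normalization and 0.01 with a minimum of 5 TPM, and the cause was not tested. PPARGC1A, PPARGC1B and ESRRA stayed past the fold in all 5 settings run for them.

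With a fold of 1.5, 3855 of the 20493 genes compared were higher and 6397 lower. Of the 10 genes of biogenesis, 3 were higher, because TFB2M passed it, and 2 were lower, because GABPA passed it. These counts are no result about the 10 genes. With a minimum of 5 TPM, 2254 genes were lower, since fewer genes entered. The epithelial marker median of 1.68 was 3.38 with a pseudocount of 0.1, 1.91 with quantile normalization, 2.0 without the 100 most abundant genes, 0.04 with no minimum and 3.57 with a minimum of 5 TPM. The neuronal median of -2.71 was -4.35 with a pseudocount of 0.1, -3.14 without the 100 most abundant genes and -0.43 with no minimum. The cause was not tested.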

Other observations

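A list named for the mtDNA nucleoid and protein quality control in the matrix held 17 genes, not all of them specific to these functions. All 17 were within the fold, with a median log2 ratio of -0.34, where 11.4% of all genes were higher past it and 17% lower. The chaperone HSPD1 was the most abundant with 889 TPM in si-NC against 698 TPM in si-FTO. The highest ratios were those of CLPX, the chaperone of the matrix protease, with 20.8 and 34.1 TPM (0.69), of AFG3L2, a membrane protease, with 64.9 and 105 TPM (0.68), and of the fumarase FH, with 136 and 201 TPM (0.56). The lowest were those of HMGB1, with 251 and 154 TPM (-0.70), ATAD3B, with 79.7 and 49.1 TPM (-0.69), and the prohibitin PHB2, with 393 and 251 TPM (-0.64).

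Genes in common use as references for normalization were compared as a list of 18. Of these, 2 were higher past the fold, 2 were lower and the median was 0.21, where 11.4% of all genes were higher past the fold and 17% lower, so the counts are no result about the list. Under median-ratio scaling 4 were higher and 2 lower, where 13.2% and 14.8% of all genes were. TFRC had 139 TPM in si-NC against 534 TPM in si-FTO (1.94), B2M had 168 and 566 TPM (1.75) and PPIA had 1517 and 2905 TPM (0.94, and 1.11 under median-ratio scaling). HPRT1 had 224 and 96.5 TPM (-1.20) and TBP had 38.1 and 22.5 TPM (-0.74). GAPDH, the most abundant, had 5304 and 8518 TPM (0.68). A level of PPARGC1A or ESRRA relative to a single reference gene would therefore depend on the gene chosen.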
